A study of Aspergillus nidulans with 7 samples.

Results

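The first step of an air-exposure time course in the filamentous fungus Aspergillus nidulans is described here, from mycelium growing submerged in liquid to the same mycelium after 6 h on a filter in air. It is covered by 2 of the 7 mRNA sequencing libraries of the study, the one labelled 0 h and the one labelled 6 h. The strain in all 7 libraries was FGSC A4, a wild-type reference strain with no engineered allele. Per the labels' protocols, conidia were grown in minimal medium in a carboy stirred by bubbled air for 20 h at room temperature, and mycelium in logarithmic growth was drawn onto paper filters. Filters of the 0 h sample went straight into liquid nitrogen, while the others lay on glass beads that drew up minimal medium and were kept under constant fluorescent light. The protocol places aerial hyphae at about 6 h and vesicles, the swollen conidiophore tips, between 6 and 12 h. Air, light, filtration, the support and the elapsed time all changed between the 0 h and 6 h libraries, so their parts in any difference cannot be told apart.

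Submerged hyphae of this fungus grow without forming spores. Contact with air triggers aerial hyphae that carry conidiophores, and the regulator brlA, followed by abaA and wetA, drives conidiophore and spore formation. In the soil and in culture the fungus takes up iron with siderophores, small iron-binding molecules that it makes and secretes, and its genes for siderophores and other secondary metabolites often lie side by side in clusters.

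The deposited table listed 10639 genes on 226 contigs with 6954153 counts at 0 h and 5351272 counts at 6 h. The other 5 libraries held between 4186063 and 9899347 counts. Genes with at least 1 count numbered 9394 at 0 h and 9483 at 6 h, and 9744 of the 10639 genes had a count in at least 1 of these libraries. Each time had 1 library, so no difference had a replicate check, no p-value could be given, and genes are described by size with exact 95% intervals that cover counting error only. Levels are CPM, counts scaled to library size, on the TMM scale, which sets the libraries so that the bulk of genes is level between them. TMM factors were 0.459 at 0 h and 0.878 at 6 h. A single count was worth 0.313 CPM in the 0 h library and 0.213 CPM in the 6 h library, and a count of 0 left room for 0.94 CPM in the 0 h library and for 0.638 CPM in the 6 h library. A gene was said to rise or fall when log2(CPM + 0.5) moved by at least 2, which is 4-fold, and the higher library had at least 10 CPM. That floor rested on 31.9 counts at 0 h and 47.0 counts at 6 h, with counting intervals of 6.86 to 14.2 CPM and 7.35 to 13.3 CPM.

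Conidiophore and spore markers were low in both libraries. The levels of the 11 markers added up to 111 CPM (0 h) and 60.0 CPM (6 h), against 156 CPM (12 h) and 10115 CPM (48 h) later on. brlA had 3 counts in each library. rodA and dewA, which encode hydrophobins of the spore coat, had no count at 0 h and 1 count each at 6 h, and ayg1, a gene of spore pigment synthesis, had 0 and 2. The marker levels that passed 10 CPM in either library were those of abaA, yA, pksP and ivoB. ivoB, which encodes a phenol oxidase of conidiophore pigment synthesis, fell from 12.2 CPM on 39 counts to 1.92 CPM on 9 counts, 6.38-fold with an interval of 3.04 to 14.98 that reaches below 4-fold. By totals ivoB was at -1.49 log2 units and under the floor, so no marker was called on that scale. yA, the laccase of the green spore pigment, had 54.5 and 17.2 CPM, abaA had 15.4 and 8.30 CPM, and pksP, a polyketide synthase of spore pigment, had 15.7 and 16.6 CPM. ivoA, which acts in the same pigment route as ivoB, had 1.57 and 8.94 CPM and stayed under the floor. In these bulk libraries, fewer cells of a type and less RNA per cell cannot be told apart.

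On the TMM scale, which sets the bulk of genes level, most genes stayed within 2-fold and more genes fell than rose. Of the 7012 genes at the floor, 266 rose, which is 3.79%, and 454 fell, which is 6.47%. A further 4408 genes, or 62.9%, stayed within 2-fold. That share depends on the scale and was not counted by totals, where the median change was 0.92 log2 units. Ranks were largely kept, with a Spearman correlation of 0.91 between the 0 h and 6 h levels over the 9744 genes with a count, a description over genes measured in the same libraries.

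The balance of rises and falls turned over with the scaling. Scaled by the libraries' totals, 922 genes rose, which is 13.9% of 6612 at the floor, and 136 fell, which is 2.06%. Rises made up 36.9% of the calls on the TMM scale and 87.1% on the totals scale. The scales differed by a constant 0.94 log2 units before the pseudocount, and the median change over genes at the floor was 0.01 on the TMM scale and 0.92 on the totals scale. A set of 260 genes rose on both scales and 136 fell on both, and 0 genes were called in opposite directions. By totals alone 662 genes rose, while 318 fell on the TMM scale alone. The 6 genes that rose on the TMM scale alone had at most 11.1 CPM at 6 h on that scale and missed the floor by totals. Which scale is nearer to RNA per cell was not tested, and rises and falls below are relative to the bulk of genes unless totals are named.

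**Figure D1:**
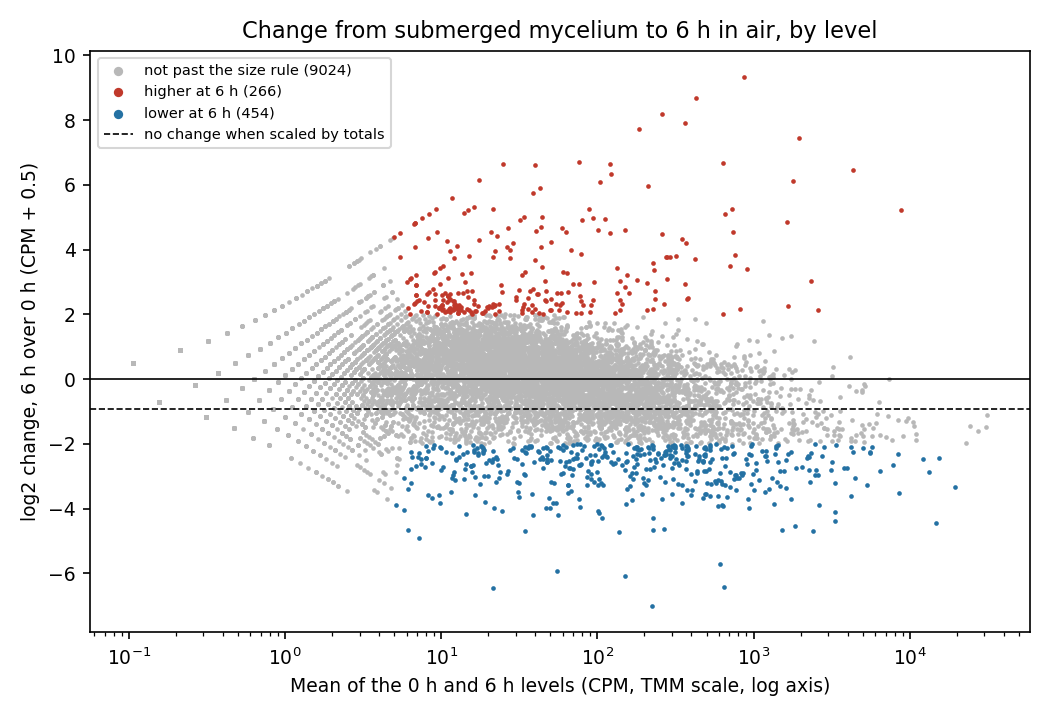
Change from 0 h to 6 h (y axis, log2 of CPM + 0.5, TMM scale) against the mean of both levels (x axis, CPM, log axis), 1 point per gene with a count; red points rose (266), blue points fell (454), and the dashed line marks no change when scaled by totals. The cloud bends below 0 above about 100 CPM, and the largest rises reach 9.32 log2 units.

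Sizes of change reached further upward than downward. The median change was 2.68 log2 units among genes that rose and -2.58 among those that fell. Rises of at least 8-fold numbered 111 and falls of that size 137. At 16-fold the order had turned, with 67 rises and 27 falls, and at 64-fold there were 16 rises and 4 falls. At the edge of the rule, AN1668 with 2.003 log2 units and AN8819 with 2.008 were just inside, and AN8253 with 1.996 and AN8280 with 1.994 just outside. Among falls, AN1605 at -2.003 was just inside and AN7780 at -1.998 just outside.

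The largest rises were of genes that the reference does not name. AN7521, on contig 126 at 320995 to 322677, went from 7 counts to 8102 counts, or from 2.19 to 1724 CPM, a 786-fold rise with an interval of 381 to 1956. AN0531 went from 5 to 3997 counts, AN6429 from 4 to 2420, AN8593 from 8 to 3413 and AN2818 from 4 to 1721. Their levels at 6 h were 851 CPM for AN0531, 515 CPM for AN6429, 726 CPM for AN8593 and 366 CPM for AN2818. All 5 lay on different contigs, so the largest rises were scattered in the listed order. For 11 genes that rose no count was seen at 0 h. The largest of these was AN9177, with 233 counts at 6 h. Its level was 52.8-fold higher if the 0 is set at the 3 counts that it allows, which is not an exact counting limit.

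The largest falls were concentrated in a single stretch of contig 31. AN2035 fell from 1427 to 14 counts, or from 447 to 2.98 CPM, a 150.1-fold fall with an interval of 89.1 to 275. AN2038, AN2034 and AN2031 from the same stretch fell 89.1-fold (interval 70.0 to 115), 77.1-fold (48.5 to 131) and 85.1-fold (38.7 to 234). The exception among the 5 largest was AN10447 on contig 59, which fell from 137 counts to 0. Against the 3 counts that a count of 0 allows this was at least 67.2-fold, and the exact 95% counting limit was 53.9-fold. AN1804 with 46 counts at 0 h and AN9341 with 39 were the other genes that fell to no count at 6 h.

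Counts were spread over more genes at 6 h than at 0 h. Each library's own top 10 genes by count took 15.4% of its counts at 0 h but 10.3% at 6 h, and 5 genes were in both. For the top 100 these shares were 45.3% and 32.1%, with 64 genes in both. It took 133 genes to hold 50% of the counts at 0 h and 315 genes at 6 h. The 0 h library's top 100 kept 25.7% of the counts in the 6 h library. Those genes were chosen by their 0 h counts, which favours a lower share at 6 h. The 6 h library's top 100, chosen by the 6 h counts, held 37.9% of the counts at 0 h. These shares are of raw counts, so neither scaling enters them, and gene length was not removed.

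The ranks of single genes at the top moved both ways. AN4888, AN4859, gpdA, AN2582 and AN5860 stayed among the top 10 in both libraries, with gpdA, which encodes the glycolytic enzyme glyceraldehyde-3-phosphate dehydrogenase, at 1.90% of counts before and 1.20% after the move. hsp70, a chaperone gene, went from rank 6 with 1.62% of counts to rank 33 with 0.31%. AN0858 went from rank 7 to rank 134, and from 1.29% of counts to 0.114%. In the other direction, AN7895 went from rank 716 with 0.0211% of counts to rank 2 with 1.49%. AN8366 went from rank 2319 with 0.00443% to rank 7 with 0.749%. The 266 genes that rose went from 0.311% to 7.76% of the counts, and the 454 that fell from 27.2% to 7.61%. Both sets were chosen by these same counts, so the directions of these shares follow from the choice.

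The change differed with the level of the gene. On the TMM scale the median change was 0.27 log2 units over 2055 genes with a mean of 1 to 10 CPM over both libraries and 0.25 over 4419 genes of 10 to 100 CPM. It was -0.53 over 1943 genes of 100 to 1000 CPM and -1.46 over 278 genes of more than 1000 CPM. In the top class 239 of 278 genes were below 0, and 70 of them, or 25.2%, fell while 8 rose. In the class of 10 to 100 CPM the calls were even, with 160 rises and 152 falls. Genes under 1 CPM had a median of 0.02 on very few counts. Genes with a mean of 1 to 10 CPM reached the floor only where the libraries differed, so their calls are not counted here.

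Scaling by totals raised every class by up to 0.94 log2 units and left the order of the 3 upper classes as it was. The medians by totals were 0.96 at 1 to 10 CPM, 1.16 at 10 to 100 CPM, 0.40 at 100 to 1000 CPM and -0.53 over 1000 CPM. The direction of the class of 100 to 1000 CPM therefore turned over with the scaling, while the class over 1000 CPM was below 0 on both scales. In the top class by totals, 187 of 278 genes were below 0, with 25 falls and 14 rises. Together the genes of that class went from 61.2% to 45.3% of all counts.

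A class drawn from the 0 h and 6 h levels shares its values with the change. With classes drawn from the mean of the 12 to 48 h libraries, the median was -0.34 at 100 to 1000 CPM over 1695 genes and -1.28 over 1000 CPM over 91 genes, and 72 of those 91 were below 0. At 1 to 10 CPM it was -0.078. The Spearman correlation of change with gene length was -0.01 over the 7012 genes, against -0.37 with the mean level. Calls in both directions were fewer among longer genes, with rises in 5.15% of genes of up to 500 bases and 1.81% of those over 4000 bases, and falls in 10.5% and 3.97%.

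**Figure D2:**
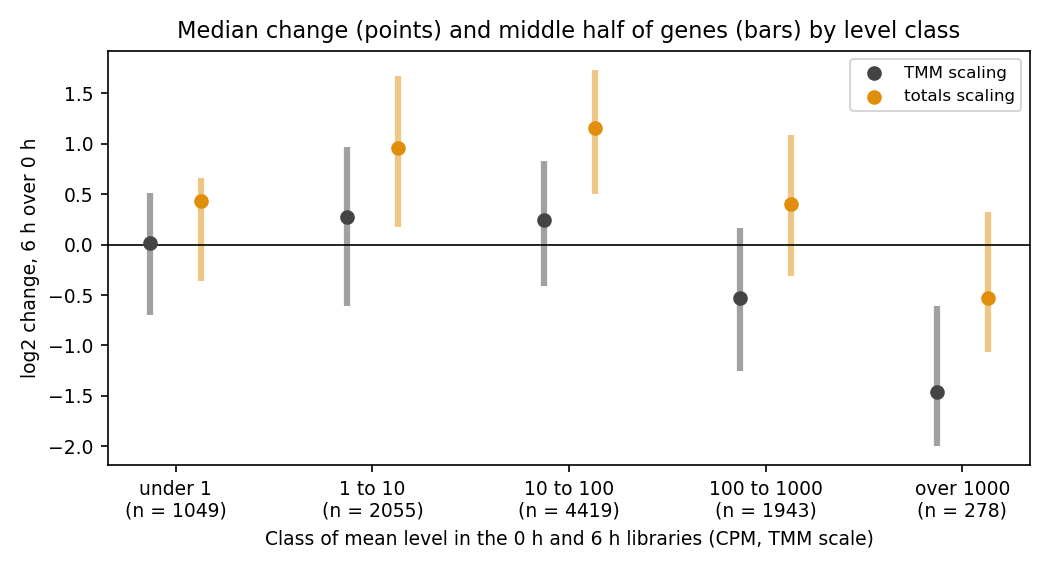
Median log2 change from 0 h to 6 h (points) and the range from the lower to the upper quartile of genes (bars) in 5 classes of mean level, in grey on the TMM scale and in orange on the totals scale. The class over 1000 CPM has medians of -1.46 and -0.53, the only class below 0 on both scales.

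Iron genes held 5 of the 6 rises found on any of the gene lists. The haem and iron list had 15 members, and 14 were at the floor. There 5 rose and 1 fell, with a median of 0.84 log2 units, beside 266 rises and 454 falls with a median of 0.01 over all 7012 genes. By totals 7 rose and 0 fell, with a median of 1.76. The 5 that rose were all genes of siderophore synthesis, breakdown or uptake.

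Of the 4 genes for making siderophores, sidI and sidD rose. sidI, which encodes the ligase that activates mevalonate for the secreted siderophores, went from 3 to 709 counts, or from 0.94 to 151 CPM, a 161-fold rise with an interval of 54.7 to 780.3. Over the later libraries sidI had between 71.2 and 94.9 CPM, so 6 h was its highest level. sidD, which encodes the synthetase that assembles fusarinine, rose from 38.2 to 523 CPM, 13.7-fold (interval 11.4 to 16.5). Its levels at 12, 18, 24, 30 and 48 h were 378, 110, 155, 119 and 145 CPM, again with the highest at 6 h. sidH, the hydratase of the same route, had 1.57 and 7.66 CPM on 5 and 36 counts, and stayed under the floor. sidC, which encodes the synthetase of the intracellular siderophore ferricrocin, had 182 and 130 CPM and was not called.

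Transporters and the esterase moved in the same direction as sidI and sidD. mirD, of the siderophore transporter family, rose from 1.25 to 40.6 CPM, 32.4-fold (12.5 to 120.3), and was highest at 6 h among all 7 libraries. mirB, the carrier of triacetylfusarinine C, rose from 30.7 to 153 CPM, 4.97-fold (4.02 to 6.202), and was higher still at 48 h with 343 CPM. sidJ, named for a siderophore esterase in Aspergillus fumigatus, rose from 11.3 to 71.9 CPM, 6.38-fold (4.52 to 9.26). mirC, of the same transporter family, had 59.2 and 179 CPM, 1.59 log2 units, short of the rule on the TMM scale and past it by totals at 2.51.

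Regulators of iron use lay on both sides of 0. hapX, the regulator active when iron is scarce, had 72.1 and 213 CPM, a change of 1.55 log2 units that passed the rule only by totals (2.48). sreA, the repressor of siderophore genes when iron is plentiful, had 133 and 51.1 CPM, a change of -1.38, or -0.45 by totals. The CCAAT-binding subunits hapB and hapE had changes of -0.88 and 0.12. Among haem genes, hemA, which encodes 5-aminolevulinate synthase at the head of the pathway, fell from 706 to 143 CPM, 4.94-fold (4.53 to 5.39), on the TMM scale, and by totals its change was -1.36 and short of the rule. hem13, coproporphyrinogen oxidase, had 4273 and 1961 CPM, and hem14, protoporphyrinogen oxidase, 133 and 113 CPM. Neither hem13 nor hem14 was called on either scale.

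Among the rises with a symbol, mrsA and sit2 also have links to iron but were outside the list. mrsA, whose namesake in A. fumigatus imports iron into mitochondria, rose from 9.71 to 230.5 CPM, 23.7-fold (16.6 to 35.1). sit2, named for a siderophore iron transporter in A. fumigatus, rose from 71.1 to 396 CPM, 5.57-fold (4.85 to 6.42). Both were picked from the 14 rises that have a symbol. Iron-linked symbols outside the list that did not rise were not counted, so these genes add nothing to the direction of the list.

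**Figure D3:**
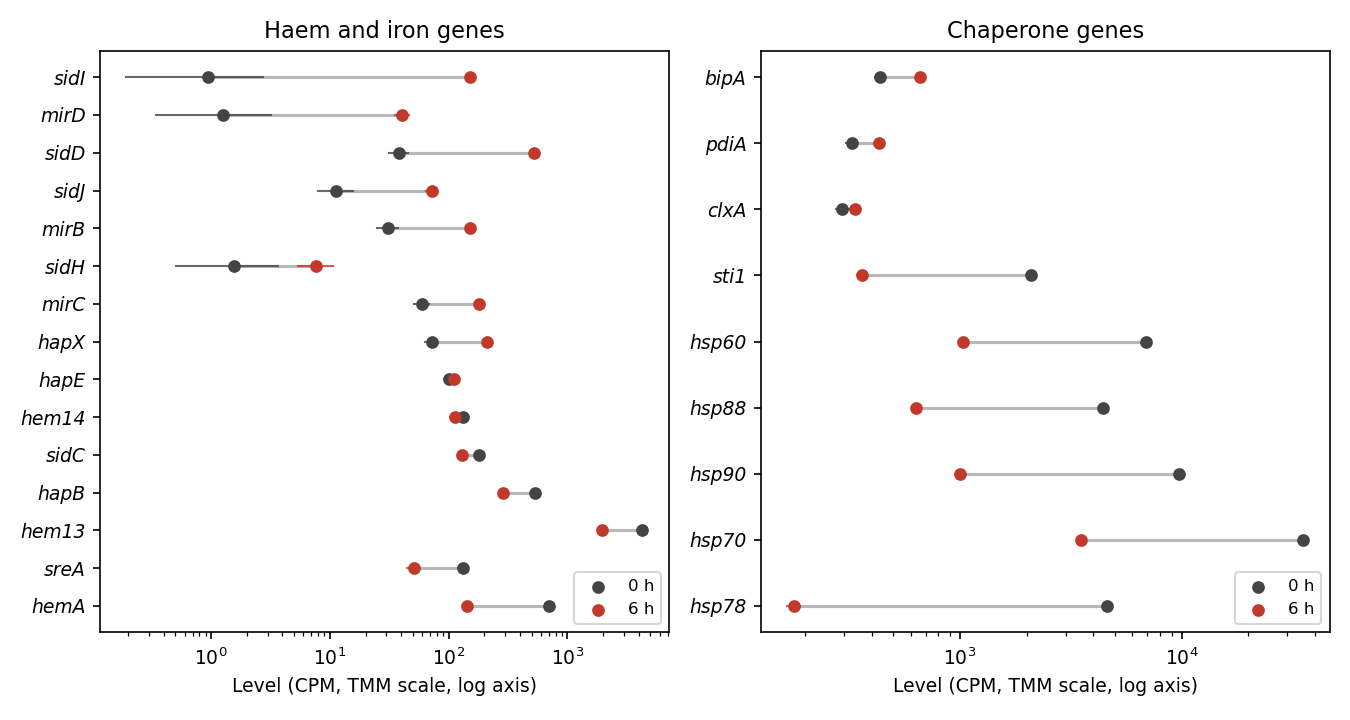
Levels at 0 h (grey) and 6 h (red) on a log axis of CPM on the TMM scale for 15 haem and iron genes (left) and 9 chaperone genes (right), with exact 95% counting intervals as thin lines. sidI, mirD, sidD, sidJ and mirB moved up by at least 4-fold, and 6 chaperone genes moved down while bipA, pdiA and clxA lay slightly higher at 6 h.

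Most chaperone genes fell, other than those of the endoplasmic reticulum. Chaperones bind unfolded proteins, and heat shock proteins are those made in quantity under heat and other stress. Of 9 list members, all at the floor, 6 fell and 0 rose, with a median of -2.73 log2 units, beside falls in 6.47% of all genes at the floor. By totals 3 fell and 0 rose, beside 2.06% of all genes, and the median was -1.80. The 6 that fell all had a mean level over 1000 CPM, the class in which 25.2% of genes fell and the median change was -1.46. hsp78, which encodes a mitochondrial disaggregase in yeast, fell from 4621 to 178 CPM, 25.97-fold (24.2 to 27.9). hsp70 fell from 35389 CPM on 112960 counts to 3525 CPM on 16564 counts, 10.04-fold (9.88 to 10.2), and hsp90 fell from 9726 to 1000.4 CPM, 9.72-fold (9.43 to 10.03). These 3 were the members that also fell by totals.

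The cochaperones and mitochondrial chaperonin followed with smaller factors. hsp88 fell 6.96-fold (6.69 to 7.24), hsp60, the mitochondrial chaperonin, 6.65-fold (6.45 to 6.86), and sti1, which links Hsp70 to Hsp90, 5.79-fold (5.49 to 6.11). In the later libraries these 6 genes stayed below their 0 h levels. hsp70, for example, had between 1578 and 3350 CPM from 12 to 48 h. Chaperones of the endoplasmic reticulum showed values on the other side of 0, with 0.61 log2 units for bipA, 0.41 for pdiA and 0.19 for clxA, none past the rule. Among other falls by symbol, fes1, a nucleotide exchange factor of Hsp70 in yeast, fell 15.2-fold (13.7 to 17.0), and zpr1, a zinc finger protein that acts as a chaperone in yeast, fell 11.7-fold (10.5 to 13.04). Both were picked from the largest falls with a symbol, so they add nothing to the direction of the list.

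In carbon metabolism 2 genes of gluconeogenesis fell on the TMM scale and 1 of them by totals. Over all genes at the floor 6.47% fell on the TMM scale and 2.06% by totals. All 4 members of the glycolysis and gluconeogenesis list were below 0 on both scales. acuF, gpdA and pgkA had mean levels over 1000 CPM. In that class 86.0% of genes were below 0, or 67.3% by totals, with medians of -1.46 and -0.53. fbp1, which encodes fructose-bisphosphatase, fell from 909 to 97.04 CPM, 9.37-fold (8.49 to 10.4), also by totals. acuF, which encodes phosphoenolpyruvate carboxykinase and is also on the list of fermentation and C2 metabolism, fell from 3534 to 536 CPM, 6.60-fold (6.32 to 6.89), with -1.78 log2 units by totals, short of the rule. gpdA and pgkA, which act in glycolysis, had changes of -1.59 and -1.55, or -0.65 and -0.62 by totals. fhpA, a flavohaemoglobin gene on the C2 list, fell from 6789 to 1576 CPM, 4.31-fold (4.20 to 4.42), and sdh2, a succinate dehydrogenase subunit, fell from 554 to 134 CPM, 4.12-fold (3.76 to 4.52). fhpA too had a mean over 1000 CPM, the class in which 25.2% of genes fell. By totals neither fhpA nor sdh2 passed the rule.

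Nitrogen genes that share a cluster parted in direction. crnA, niiA and niaD lie close together on contig 15, with AN10143 between crnA and niiA, and encode the nitrate transporter, nitrite reductase and nitrate reductase. crnA rose from 1.88 CPM on 6 counts to 11.7 CPM on 55 counts, 6.23-fold with an interval of 2.69 to 17.7 that reaches below 4-fold. With a mean of under 10 CPM, crnA reached the floor only because the libraries differed, so its call carries little weight. niiA fell from 9337 to 2173 CPM, 4.30-fold (4.20 to 4.39), and niaD had 305 and 182 CPM, -0.74 log2 units. niiA had a mean over 1000 CPM, the class in which 25.2% of genes fell and the median change was -1.46. niaD lay in the class of 100 to 1000 CPM, with a median of -0.53. By totals crnA still rose, niiA was at -1.17 and niaD at 0.19. In the proline cluster, prnB, the transporter gene, had 9.71 and 31.3 CPM, a change of 1.64. The neighbouring catabolic genes prnD and prnC had changes of -1.93 and -1.87, so the transporter and the enzymes again lay on opposite sides of 0, without passing the rule on this scale. Over the 9 genes of nitrate and proline use, 1 rose and 1 fell, with a median of -0.74, or 0.19 by totals. Over all genes at the floor 3.79% rose and 6.47% fell.

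Metal and calcium transport held 2 falls among 12 members, all at the floor, beside 6.47% of all genes. zrfA, a zinc transporter gene, fell from 4577 to 875 CPM, 5.23-fold (5.05 to 5.42). Its mean was over 1000 CPM, the class in which 25.2% of genes fell. pmcC, a calcium ATPase gene, fell from 772 to 102 CPM, 7.55-fold (6.85 to 8.35). The median of the list was -0.89, or 0.04 by totals, where no member passed the rule. aspf2, next to a zinc transporter gene in A. fumigatus, fell from 42.0 to 5.32 CPM, 7.89-fold (5.12 to 12.6), and was at -1.93 by totals, short of the rule.

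Lists of ribosome assembly, ribosomal proteins, translation and the proteasome held no call on the TMM scale. Over all genes at the floor 3.79% rose and 6.47% fell, so few calls would stand in lists of this size. By totals 13.9% of all genes at the floor rose. Of 20 ribosome assembly genes at the floor, 17 were above 0 on the TMM scale, with a median of 0.67, and 0 were called in either direction. spb4, an RNA helicase of ribosome assembly in yeast, had the largest change in the list with 4.39 and 15.5 CPM on 14 and 73 counts, 1.71 log2 units. By totals 4 passed the rule, namely spb4, nop7, mak5 and rok1, and the median was 1.59. Medians were 0.24 for 8 ribosomal protein genes, 0.43 for 10 translation factor genes and 0.27 for 15 proteasome genes, with no call on either scale. The median of all genes at the floor was 0.01, and that of genes of 10 to 100 CPM was 0.25.

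Regulators of conidiation were not called. Of 18 list members 16 were at the floor, and 0 rose or fell, with a median of -0.03. Over all genes at the floor 3.79% rose and 6.47% fell, so few calls would stand among 16 genes. The lack of calls is therefore near the share of all genes and is no result about these regulators. fluG, which acts upstream of brlA in making an extracellular signal, came nearest with 141 and 511 CPM, 1.85 log2 units or 3.62-fold (3.27 to 4.01). fluG was highest at 6 h among the 7 libraries, and it was the member that passed the rule by totals. Among the genes named flb, flbB had a change of 0.52, flbD 0.06, flbE 0.00, flbC -0.17 and flbA -0.46. rlmA had the lowest change of the list, -1.53.

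Single falls stood in several other lists, beside falls in 6.47% of all genes at the floor, or 2.06% by totals. They were 1 of 20 genes at the floor for amino acid synthesis and 1 of 18 for ergosterol. For G protein signalling and glucan remodelling they were 1 of 15 and 1 of 13. A single fall in lists of this size is near the share of all genes and is no result about the list. Smaller lists had 1 fall of 8 genes at the floor for osmotic stress (sskA), 1 of 7 for plant polysaccharide degradation (pmeA) and 1 of 4 for light sensing (nopA). There 1 gene is too few to describe the list. nopA had a mean over 1000 CPM, the class in which 25.2% of genes fell. met16, phosphoadenylyl-sulfate reductase in yeast, fell from 741 to 68.7 CPM, 10.8-fold (9.59 to 12.2), against 19 other amino acid genes at the floor that were not called. sskA, a response regulator of the osmotic stress pathway, fell from 1830 to 168 CPM, 10.9-fold (10.1 to 11.7). pmeA, a pectin methylesterase gene, fell 8.18-fold (7.16 to 9.39), and met16, sskA and pmeA fell by totals as well. nopA, an opsin-like gene, fell from 14057 to 2823 CPM, 4.98-fold (4.88 to 5.08), while fphA, a red-light sensor gene, had -1.09 log2 units and lreB, a blue-light sensor gene, 0.11. erg12, mevalonate kinase of ergosterol synthesis, fell 4.58-fold (4.03 to 5.23), beside a list median of 0.17 over 18 genes. exgO, a glucanase gene, fell 4.02-fold (3.75 to 4.32) at the edge of the rule, and gprC, a G protein-coupled receptor gene, fell 4.61-fold (3.05 to 7.14) on 97 and 31 counts. By totals nopA, erg12, exgO and gprC did not pass.

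In all, 321 genes were on any of the 33 lists, and 292 were at the floor. Of these 6 rose and 22 fell on the TMM scale, and 26 rose and 7 fell by totals, beside 3.79% and 6.47% of all genes on the TMM scale and 13.9% and 2.06% by totals. On 17 lists with a member no gene was called on the TMM scale, among them chitin synthesis, histones, the cell cycle, antioxidant defence, autophagy, peroxisomes, the respiratory chain and the cytoskeleton. The sterigmatocystin list matched 0 genes of the reference table's symbols, so that pathway is not described here. Genes with a symbol were 710 of 7012 at the floor, or 10.1%, against 14 of the 266 that rose, or 5.26%, and 39 of the 454 that fell, or 8.59%. Most of what changed is therefore without a symbol in these tables. Among the remaining named rises were gcy1, a glycerol dehydrogenase in yeast, from 89.9 to 447 CPM, fahA, fumarylacetoacetase, from 12.5 to 63.4 CPM, and cyn1, cyanate hydratase, from 3.13 to 17.2 CPM.

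Genes next to each other on a contig tended to change alike. Over 5363 pairs of next neighbours at the floor the Spearman correlation of their log2 changes was 0.28. It was 0.10 between genes 2 places apart, 0.08 at 3 places and 0.05 at 4 places, and at 5 to 10 places it was at most 0.022. This is a description over pairs that share genes and both libraries.

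Closer genes were more alike. Pairs with a gap of up to 250 bases had a correlation of 0.35 over 492 pairs, and those with a gap of at least 2000 bases 0.15 over 666 pairs. The classes between had 0.26 over 1311 pairs, 0.30 over 1726 and 0.20 over 1135, so the order was not strict. Only 14 pairs had listed positions that overlap, with 0.55, and without them the correlation over next neighbours was 0.28. Reads that run over from one gene into the next cannot be told apart from expression of the next gene in these counts.

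**Figure D4:**
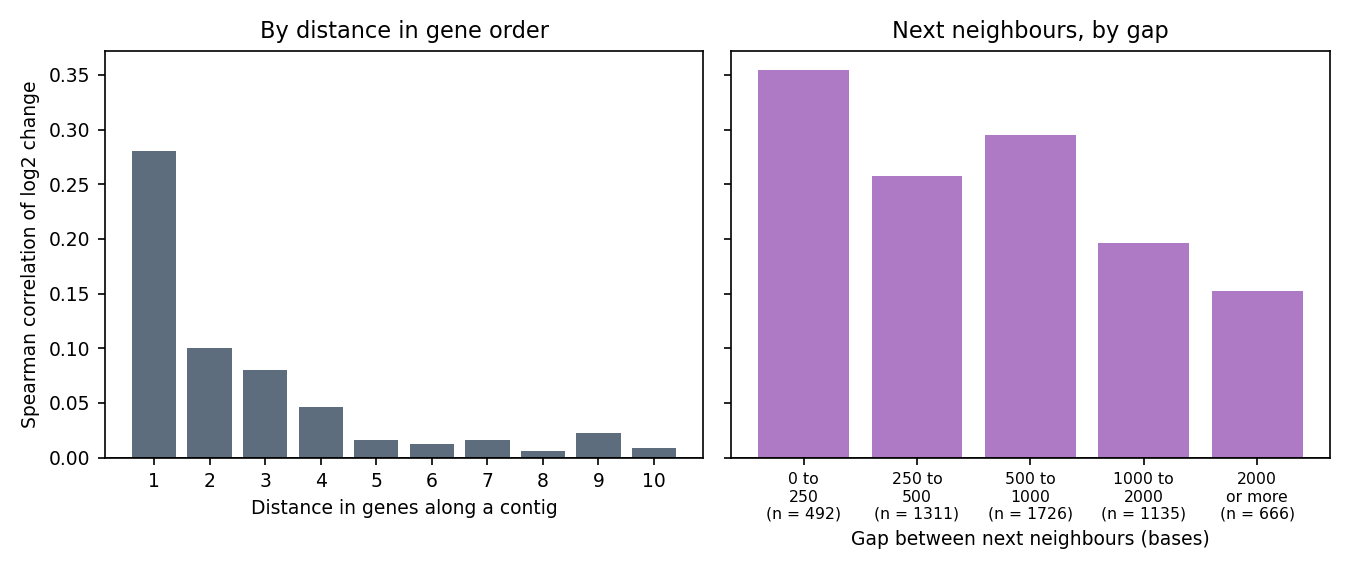
Spearman correlation of the log2 change from 0 h to 6 h between genes at the floor, by distance in the listed gene order (left) and, for next neighbours, by the gap between their listed positions in bases (right). The bar at distance 1 is 0.28, and bars from distance 5 on are at most 0.022.

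Called genes had called neighbours more often than other genes did. Of the 266 genes that rose, 69 had a next neighbour that rose, or 25.9%, against 4.10% of the 6292 genes at the floor that were not called. Of the 454 that fell, 131 had a next neighbour that fell, or 28.9%, against 7.17%. A neighbour that fell was present for 14 of the genes that rose, or 5.26%, against the 7.17% of genes not called. A neighbour that rose was present for 15 of the genes that fell, or 3.30%, against 4.10%. By totals the shares were 33.4% against 16.5% for rises and 16.9% against 2.39% for falls.

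Runs of at least 3 next neighbours called in 1 direction numbered 10 for rises, with 35 genes, and 10 for falls, with 39 genes. By totals there were 28 runs of rises and 2 of falls. The stretches with at least 6 called genes among 10 in a row were 4, namely those on contigs 132 and 167 for rises and on contigs 31 and 97 for falls. Positions are those of the deposited table, on a build not given in the sources used here.

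The stretch with the most rises lay on contig 132 between 84053 and 105576, where 9 of the 12 genes from AN7893 to AN7902 rose and the median change was 3.69. AN7895 had the most counts, going from 1469 to 79949 counts, or from 460.2 to 17013 CPM, 37.0-fold (35.1 to 39.0). AN11584 rose 66.6-fold (43.0 to 109) and AN7898 34.4-fold (28.7 to 41.6). AN7897 and AN7899 rose 18.8-fold (15.7 to 22.8) and 8.53-fold (7.35 to 9.95). The 3 genes of the stretch that were not called were AN11583 with 0 and 1 count, AN7896 with 1.42 log2 units and AN7901 with 1.32. The stretch ended sharply on its lower side, since AN7892, which precedes AN7893, fell from 6261 to 364 CPM, -4.10 log2 units. All 9 rises of the stretch also passed by totals.

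Contig 132 held a second run farther along. AN7952, AN7953, AN7954 and AN7955, between 233149 and 242339, rose 8.52-fold (7.07 to 10.3), 5.55-fold (4.07 to 7.75), 39.7-fold (16.8 to 123) and 8.48-fold (5.88 to 12.7). Together with the first stretch these account for 13 of the 15 rises on the contig. With those 15 rises and 3 falls among 54 genes, 33.3% of the contig was called, the highest share of the 51 contigs with at least 50 genes at the floor. At the other end, none of the 50 genes of contig 32 was called. Contig medians ran from -0.63 on contig 41 to 0.57 on contig 106.

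On contig 167 between 21152 and 41384, 6 of the 8 genes from AN11189 to AN11195 rose, the same share as on contig 132, with a median of 4.14. AN9179 rose from 192 to 6660 counts, or from 60.2 to 1417 CPM. AN9178 had 3 counts at 0 h and 360 at 6 h, while AN9177 and AN11189 had 0 counts at 0 h and 233 and 64 at 6 h. AN11197 had 0 and 29 counts and stayed under the floor, and AN9180, with 951 and 245 CPM, had a change of -1.95 within the rising stretch. The stretch had at most 3 counts per gene at 0 h apart from AN9180, AN9179, AN9181 and AN11195.

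The siderophore genes named above form the run at the start of contig 104. sidD, AN6237, mirD and sidJ are next to each other between 689 and 15403, and all 4 rose on both scales. AN6237, which has no symbol, rose from 11.3 to 289 CPM, 25.6-fold (18.4 to 36.7). Beyond sidJ, AN6240 had a change of 1.35 and was not called. In the reference's gene order, the next genes on the other side of sidD are sidH and AN6234, which the deposited table places at the end of contig 103. sidH had a change of 1.98 and AN6234 rose from 10.7 to 110 CPM, 3.31 log2 units, and the gene after it, AN6233, had 0.18. sidI, mirB and mrsA lie on contigs 7, 154 and 59, away from this run.

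Among the other runs of rises, AN8601 on contig 155 rose from 13 to 815 counts, 42.6-fold (24.8 to 80.3). Its neighbours AN8599, AN11092 and AN11099 rose 5.43-fold (3.22 to 9.79), 6.91-fold (4.74 to 10.4) and 7.27-fold (6.01 to 8.88). On contig 124 AN7322 went from 0 to 164 counts, 37.1-fold if the 0 is set at the same 3 counts. Beside it, AN7323 had 15 and 568 counts and AN7324 had 50 and 578. On contig 41 AN2593 rose 20.5-fold (12.3 to 37.0) beside AN2591 and AN2592, while AN2590 on the near side had a change of -3.00.

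The stretch with the most falls lay on contig 31 between 97359 and 127674, where 8 of the 10 genes from AN2030 to AN2038 fell, with a median of -4.67. AN2030, AN2031, AN2032, AN2033, AN2034 and AN2035 follow each other without a break, the longest run of falls, and all 6 also fell by totals. AN2032 fell from 1636 to 96 counts, 25.1-fold (20.4 to 31.1), and AN2033 from 1555 to 249 counts, 9.19-fold (8.04 to 10.5), the smallest fall of the run. AN2037 had the highest counts of the stretch and fell from 13162 to 2139, or from 4123 to 455 CPM. AN2036, inside the stretch, had 21.9 and 14.3 CPM and was not called, and AN11323 had no count in either library. At 48 h AN2035 had 1.03 CPM and AN2038 2.39 CPM, against 447 and 1270 CPM at 0 h.

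On contig 97 between 127313 and 160265, 7 of the 11 genes from AN5838 to AN5847 fell, with a median of -2.50. AN5842 to AN5847 form an unbroken run of 6 falls between -3.797 and -2.38 log2 units. AN5843 fell 11.9-fold (10.3 to 13.8), AN5846 5.21-fold (4.75 to 5.74) and AN5847 5.81-fold (5.34 to 6.34). AN5841, which precedes the run, rose from 4 to 86 counts. By totals only AN5842, AN5843 and AN5844 of the 6 passed the rule.

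Shorter runs of falls took in genes with a symbol. zrfA, described above, fell with AN11601, AN8338 and AN8339 between 102207 and 108629 on contig 147, by 5.23-fold, 4.98-fold (3.67 to 6.85), 4.54-fold (3.27 to 6.40) and 5.93-fold (5.46 to 6.44), and none of these 4 passed by totals. On contig 98 vip1 fell from 300 to 26 counts, 17.0-fold (11.4 to 26.4), between AN6003, with 36 and 1 counts, and AN6005, with 60 and 4. AN4110, AN4111, AN4112 and AN4113 on contig 65 fell 10.03-fold (6.68 to 15.6), 18.3-fold (13.7 to 24.9), 5.52-fold (5.05 to 6.02) and 5.47-fold (5.09 to 5.87). Of these, AN4110 and AN4111 also passed by totals.

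**Figure D5:**
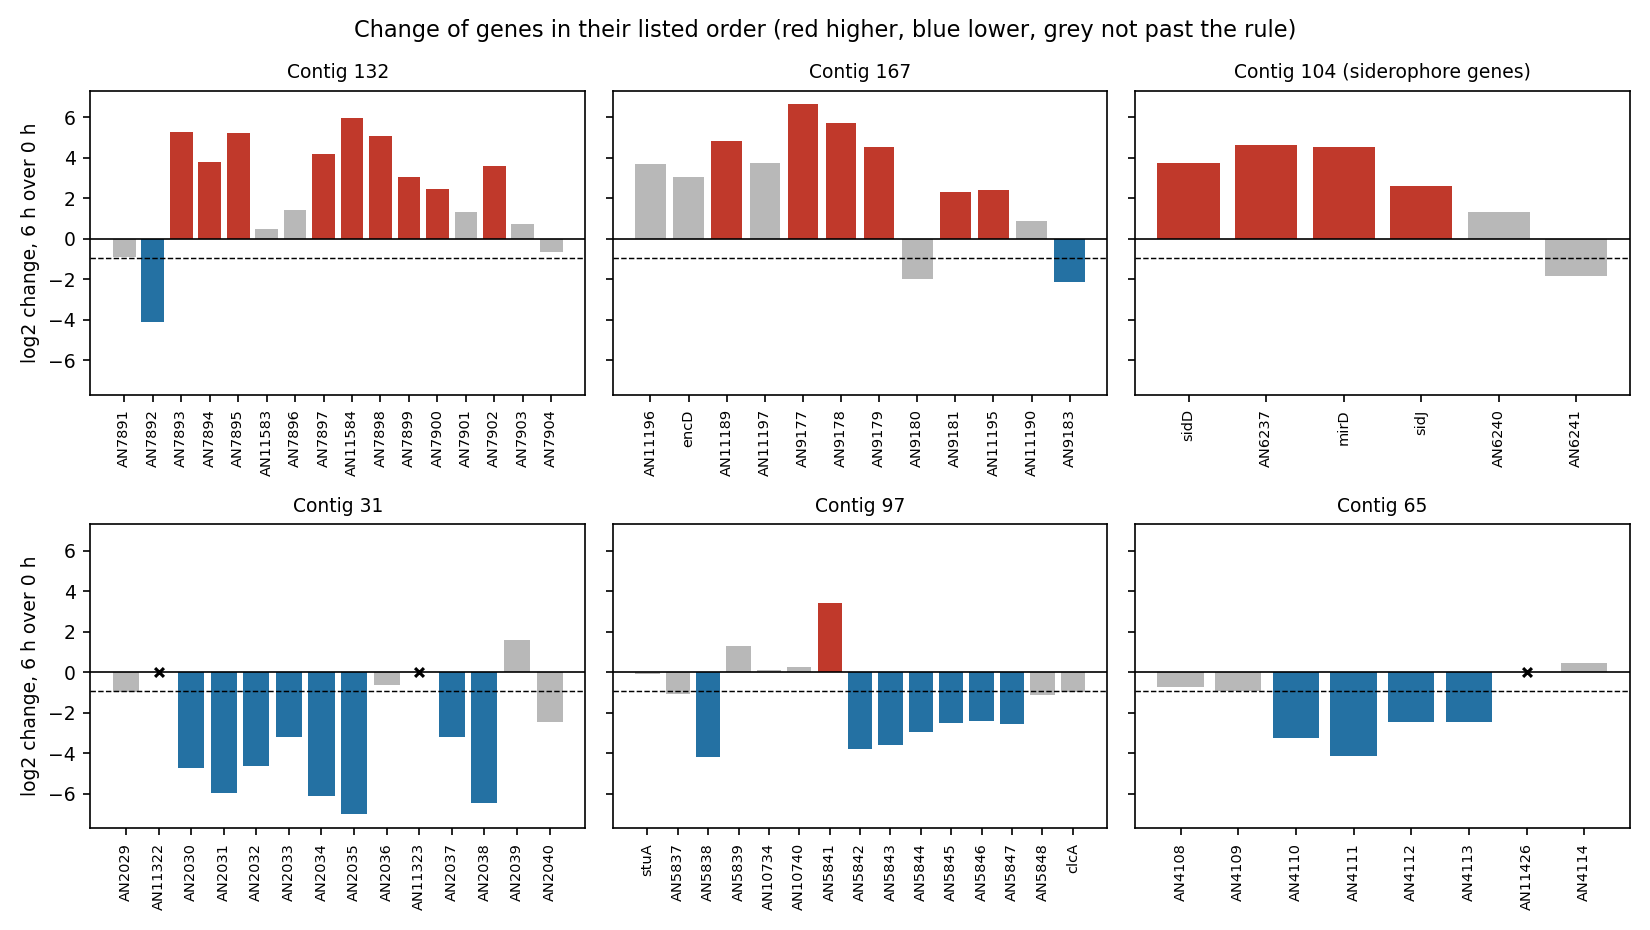
Log2 change from 0 h to 6 h (y axis, CPM + 0.5, TMM scale) for genes in their listed order in 6 stretches; red bars rose, blue bars fell, grey bars did not pass the rule, crosses mark genes with no count in either library, and the dashed line marks no change by totals. Rises stand in the stretches shown of contigs 132, 167 and 104 and falls in those of contigs 31, 97 and 65. AN7892, AN9183 and AN5841 are called genes of the opposite direction in view.

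Levels in the later libraries are given for the genes that rose or fell between 0 h and 6 h. The 266 genes that rose had medians of 4.70, 51.0, 40.8 and 32.5 CPM at 0, 6, 12 and 48 h, and 125 of them had their highest level at 6 h. The 454 that fell had medians of 302, 42.7, 53.2 and 31.2 CPM at the same times. Their highest level was at 0 h in 429 of 454 genes. These genes were chosen for a low or a high 0 h value, so the later values are a description.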

How the data were processed

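Messenger RNA was sequenced in 7 libraries, 1 per time, and the 0 h and 6 h libraries were compared. Per the file headers, the authors deposited for each gene and library a count, an RPKM value and a signal in reads per nucleotide. Whole, unscaled counts as deposited were the values used. Lengths were read from the count and the authors' signal in reads per nucleotide, and the authors' RPKM values were left aside. The submitters' processing notes name CASAVA with no version. Aligner, genome build, strand setting and any pooling of the duplicate filters were not given in the sources used here. Overlapping genes, antisense genes and near-identical copies therefore cannot be separated.

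TMM factors came from edgeR 4.0.16 over all 7 libraries and 9703 genes with at least 1 CPM in a library and 15 counts in all. Fold intervals are exact 95% Clopper-Pearson limits from both counts. Folds that set a count of 0 at 3 counts are not such limits and exceed them. Neighbours followed the deposited contigs and positions, and 17 genes with listed spans over 20 kb were left out of the gap classes. The ASM1142v1 reference table, used for names and gene order only, matched 10455 identifiers and gave 778 symbols. Gene lists were drawn from symbols. The size rule and the run finder were tested on simulated data.

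The comparison, the lists and the rules were chosen with earlier results of these data known. Named genes were the 10 with the most counts in each library, the 15 largest rises and falls with a symbol, up to 4 members and the median member of each list, members of the 5 longest runs in each direction, the 5 largest rises and falls of all genes and the conidiophore markers. Other list members, window members, flanking genes and genes at the edge of the rule were named after their values were seen. Tables and figures used pandas 2.3.3 and matplotlib 3.10.9 under Python 3.11.15, and intervals used SciPy 1.17.1.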

Additional observations from a re-analysis of the deposited data

How the results depend on the processing

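Counts of genes depended on the scaling and the size rule. Against 266 rises, totals gave 922, a 2-fold rule 1153, an 8-fold rule 111, a floor of 50 CPM 134 and a near interval limit past 4-fold 152. Against 454 falls, totals gave 136, a 2-fold rule 1451, an 8-fold rule 137, a floor of 50 CPM 365 and a near interval limit past 4-fold 347. Under upper quartile factors rises were 303 and falls 376, under DESeq2 1.42.0 size factors 238 and 528, and with TMM from the 0 h and 6 h libraries alone 233 and 421. The other floors, pseudocounts and, chosen after seeing the data, TMM from all listed genes (272 and 446) kept rises between 203 and 381 and falls between 414 and 536. Class medians by totals were 0.43, 0.96, 1.16, 0.40 and -0.53 from the lowest class to the highest. With classes from 12 to 48 h, they were -0.078 at 1 to 10 CPM, -0.34 at 100 to 1000 CPM and -1.28 over 1000 CPM. With levels per kb, chosen after seeing the data, they were 0.14, -0.62 and -1.28 in the 3 upper classes. The neighbour correlation was 0.25 over all genes with a count. Runs of rises and falls were 28 and 2 by totals and 37 and 72 with a 2-fold rule, and genes on any list 26 and 7 by totals. The scaling shift of 0.94 log2 units accounts by construction for the changes by totals; the cause of the others was not tested.

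Of 219 named genes, 154 stayed as they were by totals, either called in the same direction or without a call and on the same side of 0, 30 were no longer called, 13 were newly called and 22 without a call changed sides of 0; under upper quartile factors these were 210, 8, 0 and 1. No paired analysis was possible because each time had 1 library and no test was made. For the same reason there is no value with a replicate left out. Shares of promoter motifs were not analysed here. Low genes limit the reading: 3627 genes were under 10 CPM in both libraries, and at 0 h that floor stood for 31.9 counts.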
